A study of Homo sapiens with 12 samples.

Results

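The kinesin genes were taken as the 42 genes of 50868 in the count table whose symbol starts with KIF followed by a digit. The table had 45 such names, of which 2 antisense names and 1 pseudogene name were left out. Of the 42 genes, 13 encode motors of mitosis and cytokinesis, 13 encode motors that carry cargo, and 16 have other or less settled roles. The name rule also takes in KIF1BP, a protein that binds kinesins and is not itself a motor, and KIF4CP and KIF28P, which the table describes as pseudogenes. RNA was sequenced from MG63, an established human osteosarcoma line, in 12 libraries. Of these, 3 came from cells given 1 µM anticarin-beta for 18 hours and 3 from cells given its vehicle. In a separate experiment cells were transfected with siRNA and collected after 2 days: 3 libraries came from cells given CCT4 siRNA and 3 from cells given control siRNA. CCT4 encodes part of the chaperonin complex that folds tubulin and actin. The labels do not say that replicates were separate cultures, so p-values measure the spread between these libraries, which may be technical.

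Kinesins are motor proteins that use ATP to walk along microtubules or to shorten them. The mitotic kinesins push spindle poles apart, align chromosomes and finish cell division, and in cycling cells many of their mRNAs accumulate before mitosis. The transport kinesins carry vesicles, organelles and ciliary components, and much of what is known of them comes from neurons. In bulk RNA, fewer cells of a kind and less RNA per cell cannot be told apart, so a lower level of a mitotic kinesin can be either.

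Library totals ran from 13393750 to 17492095 counts. CCT4 itself was at 206 ± 9.18 CPM (counts scaled to library size) in the libraries labelled CCT4 siRNA and 177 ± 14.4 CPM with control siRNA (SD, n = 3 each; edgeR adjusted p = 0.129). In the compound experiment, CCT4 was lower, at 82.3 ± 8.49 CPM with anticarin-beta and 236 ± 22.9 CPM with vehicle (log2 fold change −1.52 ± 0.10, adjusted p = 1.84e-08). The labelled knockdown was not seen in the mRNA, and directions below are those of the libraries labelled CCT4 siRNA. The 6 osteoblast-like markers were detected in all groups, and COL1A1 averaged 5020 and 3780 CPM with anticarin-beta and vehicle, and 756 and 533 CPM with CCT4 siRNA and control siRNA. Of 7 markers of other cell types, EPCAM, PTPRC, CD34, MYOD1 and GFAP had group means of at most 1.80 CPM. The endothelial marker PECAM1 averaged 2.20 and 4.52 CPM with anticarin-beta and vehicle (log2 fold change −1.03 ± 0.20, adjusted p = 4.16e-04), and 12.7 and 12.9 CPM with CCT4 siRNA and control siRNA. The epithelial keratin KRT18 had means from 68.9 to 114 CPM. Vehicle replicate 1 stood apart: it was the highest of the 3 vehicle libraries for 11 of 11 mitotic kinesins tested and for 19 of 20 genes of spindle partner proteins, against 3 of 12 transport kinesins. Its part in the results was not tested, and values without it are given where leaving it out changes a kinesin's call.

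Of the 42 kinesin genes, 32 had enough counts to be tested. The other 10 were near or at 0 in these cells. KIF2B and KIF4CP had 0 counts in all libraries, which allows up to 0.224 CPM in the shallowest (3 counts over its raw total, without TMM scaling). KIF1A, KIF4B, KIF6, KIF12, KIF19, KIF25, KIF26B and KIF28P had at most 34 counts over the 3 libraries of any group. KIF25, a kinesin-14, had 0 counts with anticarin-beta and 12 with vehicle (at least 2.57-fold lower, taking 3 counts over the treated libraries as the floor). Per kilobase of exon, KIF5B, the ubiquitous kinesin-1 heavy chain, had the highest mean in both groups of the compound experiment, at 44.9 RPKM (CPM per kilobase of exon) with anticarin-beta and 38.2 RPKM with vehicle. With anticarin-beta it was followed by KIF1C at 30.7 and KIF18A at 28.1 RPKM, each clear of the next in all libraries. With vehicle it was followed by KIF20A at 26.9 RPKM, which overlapped both KIF5B above it and KIF1C, at 26.0 RPKM, below it. KIF18A was at 4.61 RPKM with vehicle. In GENCODE annotation 17 of the 42 genes share exon bases with another gene, 3 of them on the same strand.

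Because the mitotic kinesins are known as cell-cycle genes, their promoters were searched for the cell cycle genes homology region (CHR), an element bound by the DREAM and B-MYB complexes at genes that peak in G2 and mitosis. Of the 42 genes, 34 matched a RefSeq promoter (GRCh38.p14), and windows of 250 bases before the start were read on both strands. TTTGAA was present in 5 of 13 mitotic kinesins (38.5%), in 1 of 11 transport kinesins (9.09%) and in 0 of 10 others, against 16.1% of the 27305 genes in the promoter table. The variant TTCGAA was present in 1 mitotic kinesin, KIF22, against 1.5% of all genes. The CCAAT box, bound by NF-Y, was present in 10 of 13 mitotic kinesins (76.9%), 4 of 11 transport kinesins (36.4%) and 4 of 10 others (40.0%), against 37.0% of all genes. The stretches of 30 bases around each CHR match are shown so that the element and its surroundings can be compared between kinesins of different response. They read 5′ to 3′ on the strand of the gene, and capitals mark the match or its reverse complement.
KIF11 (chr10:92593090-92593119, plus strand): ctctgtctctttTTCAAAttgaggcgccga
KIF15 (chr3:44761747-44761776, plus strand): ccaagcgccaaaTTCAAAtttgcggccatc
KIF4A (chrX:70290058-70290087, plus strand): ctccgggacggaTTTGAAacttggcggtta
KIF22 (chr16:29790712-29790741, plus strand): ggcaccggggaaTTCGAAtgggagaggcgg
KIF23 (chr15:69414282-69414311, plus strand): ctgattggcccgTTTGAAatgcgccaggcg
KIF18A (chr11:28108157-28108186, minus strand): gctgaggaaagtggcttgggTTTGAAtatt
KIF5B (chr10:32056548-32056577, minus strand): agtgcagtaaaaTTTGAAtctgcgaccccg
In the mitotic kinesins the match lay 10 to 55 bases before the nearest annotated start, and in KIF5B 140 bases before it. In KIF22 it also lay 244 bases before another of that gene's annotated starts. A match is a description of the letters and not of binding, and genes holding it differed in direction with anticarin-beta: KIF11, KIF15, KIF4A and KIF22 were lower, KIF18A and KIF5B higher, and KIF23 was not called. TTTGAA was present in 3 of 15 kinesins lower with anticarin-beta (20.0%), 2 of 8 higher (25.0%) and 1 of 5 not called (20.0%).

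With anticarin-beta, 26 of the 32 tested kinesins differed from vehicle, 16 lower and 10 higher (81.2%; edgeR's quasi-likelihood test, adjusted p under 0.05). The compound changed most genes: 73.0% of all 17717 genes tested were called, so this share is near the background. Among the mitotic kinesins 7 were lower and 2 higher of 11 tested, with a median log2 fold change of −0.75, and the transport kinesins split into 5 lower and 6 higher of 12, with a median of 0.07. Over all genes 38.0% were called lower and 34.9% higher, and the median was −0.06. The mitotic minus transport difference of medians was −0.82. These values depend on which genes each class holds. With wider classes the mitotic median was −0.32 (7 lower and 3 higher of 13 tested), the transport median 0.07 and the difference −0.39. KIF2A, a depolymerase of spindle poles (0.40), was counted among the other kinesins. CENPE (0.60) and KIFC1 (−0.05), kinesins of kinetochores and spindle poles, fell outside the name rule. The rest of this paragraph uses the narrower classes. KIF5A, counted among the higher transport kinesins, passed the low-count filter through the treated group. With a filter of at least 1 CPM in 3 libraries KIF5A drops out, the transport median is −0.07 and the difference −0.66. Without vehicle replicate 1, 6 of the same 11 mitotic kinesins were lower and 3 higher, with a median of −0.51 and a difference of −0.58. Over all genes 6757 were lower and 6079 higher in that fit (70.4% called). In that fit KIF4B also passes the low-count filter, and counting it in moves the difference to −0.42. Scaled by library totals alone, which shifts the median of all genes to −0.48, 23 kinesins were lower and 6 higher. Over all genes 8959 were then lower and 4292 higher (74.8% called). The mitotic kinesins were 9 lower and 1 higher, and the transport kinesins 8 and 4. The difference of medians stayed at −0.82. No test was made of that difference, since genes are not replicates.

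**Figure D1:**
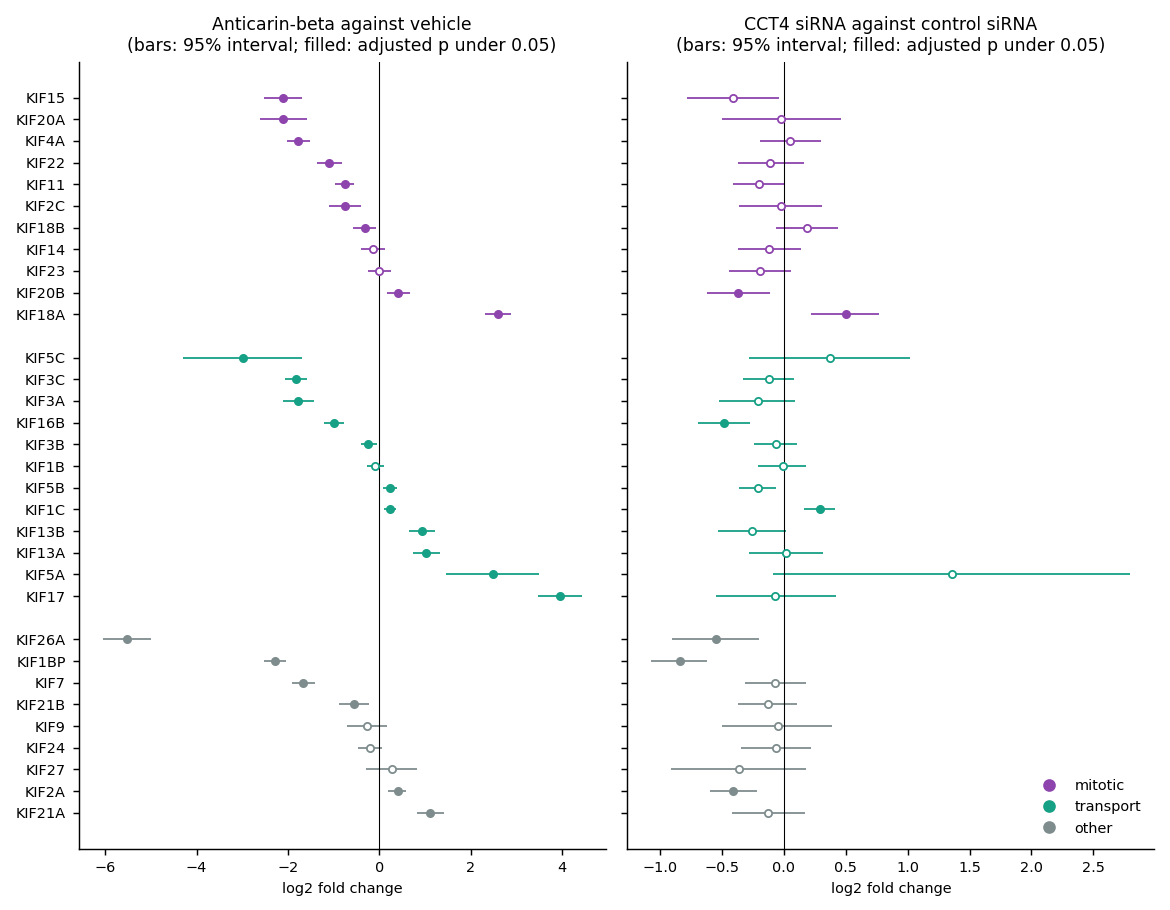
Log2 fold change of the 32 tested kinesins (x axis) for anticarin-beta against vehicle (left) and CCT4 siRNA against control siRNA (right, on a narrower scale), by class, with 95% intervals; filled points passed an adjusted p under 0.05. On the left KIF18A (2.61) stands apart from the 7 mitotic kinesins that were lower, and the transport kinesins run from −2.99 to 3.96.

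KIF11 and KIF15, which push the spindle poles apart, were both lower with anticarin-beta. KIF11 (Eg5) slides antiparallel microtubules against each other, and KIF15 assists it once the spindle has formed. KIF11 was at 54.3, 51.8 and 46.1 CPM with anticarin-beta, against 99.9, 81.1 and 77.3 CPM with vehicle (log2 fold change −0.76 ± 0.10, SE, with an adjusted p = 1.35e-05). KIF15 was at 3.44, 3.42 and 3.43 CPM with anticarin-beta, against 17.3, 15.0 and 12.1 CPM with vehicle (−2.11 ± 0.19, adjusted p = 4.68e-07). All 3 treated libraries lay below all 3 vehicle libraries for both genes.

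The motors that act on chromosomes and on microtubule ends went in both directions. The chromokinesins KIF22 (Kid) and KIF4A bind chromosome arms, and KIF4A also sets the length of the central spindle. KIF22 was at 39.7, 38.4 and 38.5 CPM with anticarin-beta, against 104, 78.5 and 67.1 CPM with vehicle (−1.10 ± 0.13, adjusted p = 4.93e-06). KIF4A was at 13.8, 15.9 and 16.1 CPM with anticarin-beta, against 62.7, 48.1 and 46.1 CPM with vehicle (−1.78 ± 0.12, adjusted p = 2.47e-08). Neither gene's groups overlapped. KIF4A has a near-identical copy, KIF4B, which had 8 counts over the treated and 17 over the vehicle libraries, so the split of reads between them is uncertain. KIF2C (MCAK), which removes tubulin from microtubule ends at centromeres, was at 33.0, 34.1 and 29.6 CPM with anticarin-beta, against 71.9, 49.5 and 41.4 CPM with vehicle (−0.75 ± 0.16, adjusted p = 9.13e-04). KIF18B, which shortens astral microtubules, was at 49.1, 52.9 and 56.6 CPM, against 80.2, 59.8 and 58.1 CPM with vehicle (−0.32 ± 0.12, adjusted p = 0.0252). Its call was lost without vehicle replicate 1 (−0.17, adjusted p = 0.102) and without anticarin-beta replicate 1 (−0.27, adjusted p = 0.0877) or 2 (−0.32, adjusted p = 0.0565).

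KIF18A, a kinesin-8 that damps the swinging of chromosomes at the metaphase plate, went the other way. It was at 116, 140 and 136 CPM with anticarin-beta, against 25.4, 18.9 and 20.3 CPM with vehicle. The lowest treated library was several times the highest vehicle library, and the gene was 6.08-fold higher (log2 fold change 2.61 ± 0.13, adjusted p = 2.06e-09). Of all genes, 8.38% were called and higher by over 4-fold. KIF18A therefore took 24.7% ± 1.54 of the counts of the mitotic kinesins with anticarin-beta and 3.33% ± 0.293 with vehicle (SD, n = 3 each). Its exons share 61 bases with METTL15 on the opposite strand, whose own level of 15.1 ± 5.99 CPM with anticarin-beta and 12.2 ± 8.53 CPM with vehicle did not pass the test (adjusted p = 0.556).

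The kinesins of cytokinesis were split as well. KIF20A (MKLP2) brings the chromosomal passenger complex to the central spindle, KIF23 (MKLP1) is the motor of the centralspindlin complex, KIF14 acts at the midbody with citron kinase, and KIF20B serves late abscission. KIF20A was at 24.5, 23.8 and 26.3 CPM with anticarin-beta, against 162, 78.5 and 78.1 CPM with vehicle (−2.10 ± 0.23, adjusted p = 3.63e-06). Vehicle replicate 1 had more than the other two vehicle libraries together, and without it the log2 fold change was −1.67. KIF20A shares 132 exon bases with BRD8 and 68 with CDC23, both on the opposite strand and both called higher with anticarin-beta (0.34 ± 0.08 and 0.19 ± 0.07). KIF20B was at 60.1, 73.6 and 56.4 CPM, against 53.1, 41.1 and 48.5 CPM with vehicle (0.41 ± 0.12, adjusted p = 0.00677), but at −0.01 on the log2 scale with library totals alone. KIF23 was at 76.6, 80.3 and 81.7 CPM, against 98.8, 71.2 and 68.6 CPM with vehicle (0.00 ± 0.11, 95% interval −0.25 to 0.25). It was called higher without vehicle replicate 1 (0.18, adjusted p = 0.0286) and lower with library totals alone (−0.42, adjusted p = 0.00682). KIF14 was at 37.8, 37.8 and 37.9 CPM, against 51.5, 34.3 and 39.0 CPM with vehicle (−0.14 ± 0.12, 95% interval −0.40 to 0.12). Its value was 0.03 without vehicle replicate 1, and −0.28 with a call (adjusted p = 0.0356) without vehicle replicate 2. With library totals alone KIF14 was called lower too (−0.56, adjusted p = 0.00144). Of the 11 mitotic kinesins tested, the groups overlapped for KIF23 and KIF14 only. Of all 32 kinesins, 17 lay lower and 10 higher with no overlap, against 74.6% of all genes with none (38.8% lower and 35.8% higher).

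**Figure D2:**
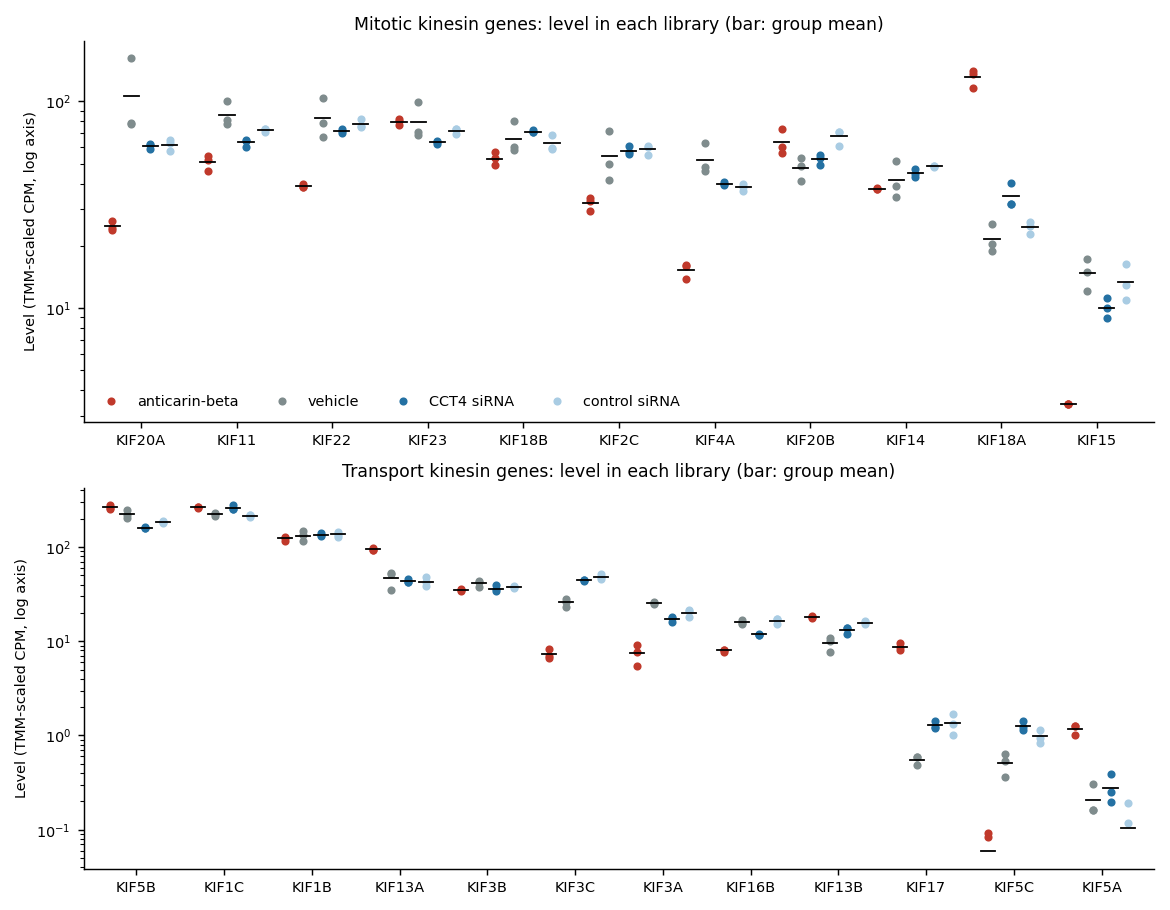
TMM-scaled CPM (log axis) of the tested mitotic (top) and transport (bottom) kinesins in each library, with group means as bars and counts of 0 not drawn. KIF18A is the mitotic kinesin far above its vehicle libraries (116 to 140 against 18.9 to 25.4 CPM), KIF15 and KIF4A are far below theirs, and KIF17 is the transport kinesin with the largest increase.

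The kinesin-1 heavy chains, which carry vesicles and mitochondria toward microtubule plus ends, differed little where they were abundant. KIF5B was at 261, 277 and 253 CPM with anticarin-beta, against 247, 206 and 221 CPM with vehicle (0.23 ± 0.07, adjusted p = 0.00968). With library totals alone the value was −0.19, and the call was lost without vehicle replicate 2 (0.15, adjusted p = 0.0764). The neuronal KIF5A and KIF5C were scarce. KIF5A was at 1.26, 1.02 and 1.26 CPM with anticarin-beta, against 0.160, 0.302 and 0.160 CPM with vehicle (2.48 ± 0.47, adjusted p = 3.84e-04), and it passed the low-count filter through the treated group. KIF5C was at 0.0839, 0.0924 and 0 CPM with anticarin-beta, against 0.533, 0.362 and 0.642 CPM with vehicle (adjusted p = 6.05e-04). With 2 counts left in the treated libraries and 28 with vehicle, the vehicle level was 8.99 times the treated one (95% counting interval 2.27 to 77.8).

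The kinesin-2 motors carry material along cilia and, as KIF3A with KIF3B or KIF3C, in the cytoplasm. KIF3A was at 5.45, 7.76 and 9.12 CPM with anticarin-beta, against 26.0, 25.3 and 25.1 CPM with vehicle (−1.77 ± 0.15, adjusted p = 2.91e-07). KIF3C was at 8.22, 6.93 and 6.61 CPM, against 22.9, 28.2 and 26.4 CPM with vehicle (−1.83 ± 0.11, adjusted p = 8.82e-09). Both were lower in all treated libraries, and so was KIFAP3, the adaptor subunit of the same complex, at 5.76 ± 1.25 CPM with anticarin-beta and 26.0 ± 1.93 CPM with vehicle (−2.17 ± 0.14, adjusted p = 1.70e-08). KIF3B, the third motor subunit, was at 35.2, 36.2 and 34.0 CPM, against 42.6, 38.1 and 43.6 CPM with vehicle (−0.24 ± 0.08, adjusted p = 0.0187), a call lost without vehicle replicate 3 (−0.21, adjusted p = 0.0527) or anticarin-beta replicate 3 (−0.21, adjusted p = 0.0628). KIF17, the homodimeric kinesin-2 known from dendrites and cilia, was at 9.48, 8.04 and 8.62 CPM with anticarin-beta, against 0.586, 0.483 and 0.588 CPM with vehicle. It was 15.5-fold higher (3.96 ± 0.22, adjusted p = 4.47e-09), with every treated library above every vehicle library.

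The kinesin-3 motors, which move endosomes and other vesicles, also split. KIF13A, which carries recycling endosomes, was at 93.7, 98.6 and 93.4 CPM with anticarin-beta, against 52.4, 34.6 and 52.5 CPM with vehicle (1.03 ± 0.14, adjusted p = 1.74e-05). Its relative KIF13B was at 18.4, 17.7 and 18.2 CPM, against 7.62, 10.0 and 10.9 CPM with vehicle (0.93 ± 0.13, adjusted p = 2.93e-05). KIF16B, a motor of early endosomes, was at 8.13, 8.04 and 7.78 CPM, against 15.5, 17.0 and 15.3 CPM with vehicle (−1.0 ± 0.10, adjusted p = 1.38e-06). None of these 3 overlapped between groups. KIF1C, a vesicle motor, was at 264, 268 and 259 CPM, against 230, 224 and 215 CPM with vehicle (0.24 ± 0.06, adjusted p = 0.00252), and at −0.18 with library totals alone. KIF1B was at 117, 129 and 125 CPM, against 133, 115 and 148 CPM with vehicle, overlapping (−0.09 ± 0.09, 95% interval −0.28 to 0.10). It was called lower without vehicle replicate 2 (−0.21, adjusted p = 0.0301) and with library totals alone (−0.51, adjusted p = 2.06e-04). A short non-coding gene shares 293 exon bases with KIF1B on its strand, so its count is uncertain.

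Among the kinesins of other roles, KIF26A, an atypical kinesin without ATPase activity, had the largest decrease of the kinesins tested. It was at 0.503, 0.462 and 0.251 CPM with anticarin-beta, against 18.3, 16.6 and 22.2 CPM with vehicle, 46.3-fold lower (−5.53 ± 0.24, adjusted p = 6.32e-10). Of all genes, 11.0% were called and lower by over 4-fold. KIF1BP was at 8.81, 9.15 and 12.0 CPM, against 48.6, 51.1 and 46.1 CPM with vehicle (−2.28 ± 0.11, adjusted p = 1.46e-09). KIF7, a ciliary regulator of Hedgehog signalling, was at 24.7, 22.6 and 17.3 CPM, against 74.4, 66.5 and 63.5 CPM with vehicle (−1.66 ± 0.12, adjusted p = 6.06e-08). KIF7 shares 589 exon bases with TICRR on the opposite strand, which was not called (0.18 ± 0.10). KIF21A, which restrains microtubule growth at the cell cortex, was at 23.2, 22.6 and 26.9 CPM, against 12.1, 9.71 and 11.7 CPM with vehicle (1.12 ± 0.13, adjusted p = 6.91e-06). KIF2A, a microtubule depolymerase of spindle poles and neurons, was at 53.3, 55.5 and 54.7 CPM, against 42.1, 37.3 and 44.8 CPM with vehicle (0.40 ± 0.09, adjusted p = 0.00131), and at −0.02 with library totals alone. IPO11 shares 428 exon bases with KIF2A on the same strand, so the KIF2A count is uncertain. Groups did not overlap for any of these 5. KIF21B was called lower at under 5 CPM in both groups (−0.55), and KIF24, KIF27 and KIF9 were not called, with log2 values of −0.20, 0.27 and −0.27. With library totals alone KIF24 (−0.62, adjusted p = 7.12e-04) and KIF9 (−0.69, adjusted p = 0.0082) were called lower. KIF24 was also called lower with upper-quartile scaling (−0.32, adjusted p = 0.0388). It shares 143 exon bases with UBAP1 on the opposite strand, which was higher with anticarin-beta (2.26 ± 0.13, adjusted p = 4.97e-09). KIF9 shares 870 exon bases with KIF9-AS1 and 178 with KLHL18, both on the opposite strand. KLHL18 was not called (0.24 ± 0.14). KIF27 was at 0.08 without vehicle replicate 1.

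**Figure D3:**
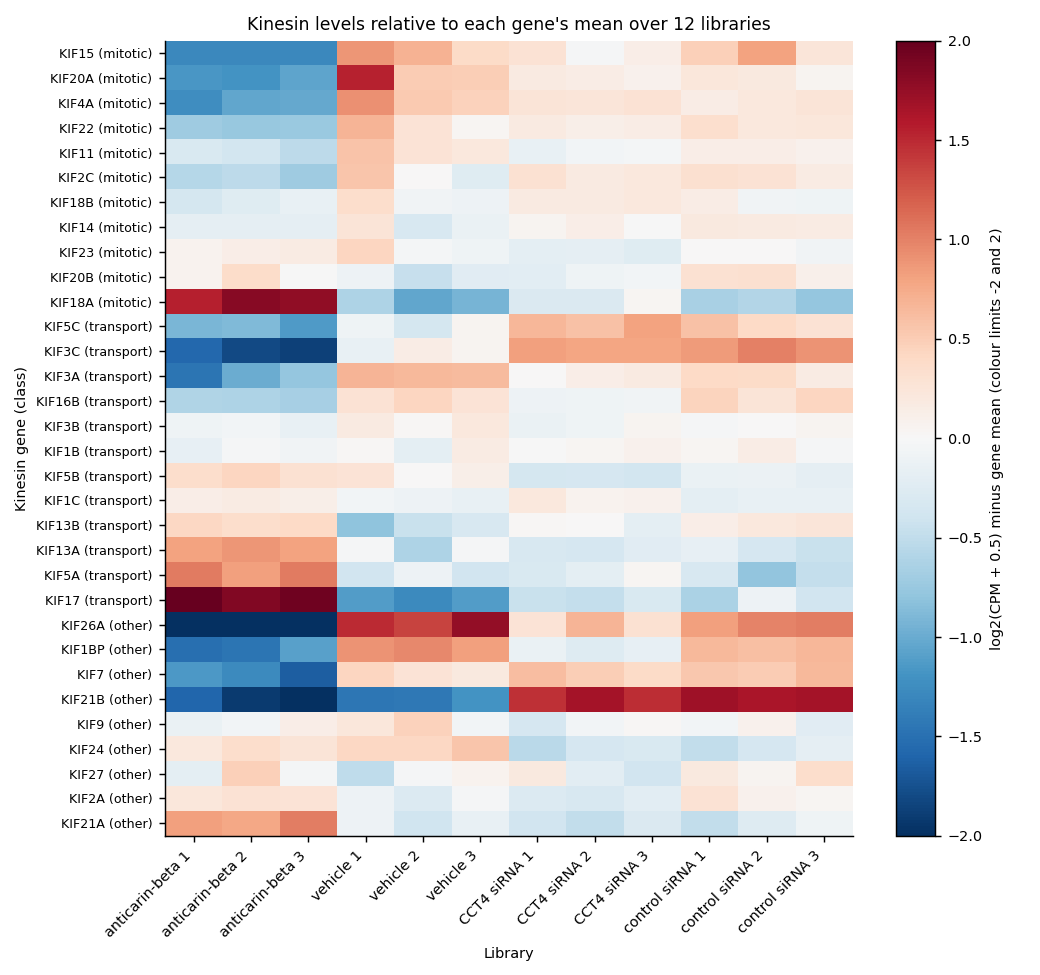
Level of the 32 tested kinesins (rows, by class) in the 12 libraries (columns), as log2(CPM + 0.5) minus the mean of the gene over all libraries; colour is limited at −2 and 2. The 3 anticarin-beta libraries differ from the other 9 in many rows, vehicle replicate 1 is the highest vehicle library in all 11 mitotic rows, and KIF21B differs between the 2 experiments.

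Summed over their genes, the mitotic kinesins were at 530 ± 21.5 CPM with anticarin-beta and 654 ± 151 CPM with vehicle (SD, n = 3 each), and the transport kinesins at 832 ± 22.5 CPM with anticarin-beta and 746 ± 41.6 CPM with vehicle. The mitotic sum was 509, 552 and 529 CPM with anticarin-beta, against 828, 576 and 557 CPM with vehicle, so the groups were close but for vehicle replicate 1. Without KIF18A the mitotic sum was 399 ± 11.0 CPM with anticarin-beta and 632 ± 148 CPM with vehicle. The lowest vehicle library was then at 537 CPM and the highest treated one at 412 CPM. KIF18A had the largest increase of the mitotic kinesins, so leaving it out widens the gap by construction. The wider gap is therefore no separate evidence of a class difference. The ratio of mitotic to transport sums was 0.619, 0.644 and 0.648 with anticarin-beta, against 1.06, 0.825 and 0.734 with vehicle. The mean ratio was 0.637 ± 0.0157 with anticarin-beta and 0.873 ± 0.168 with vehicle, or 0.779 with vehicle when its replicate 1 is left out.

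**Figure D4:**
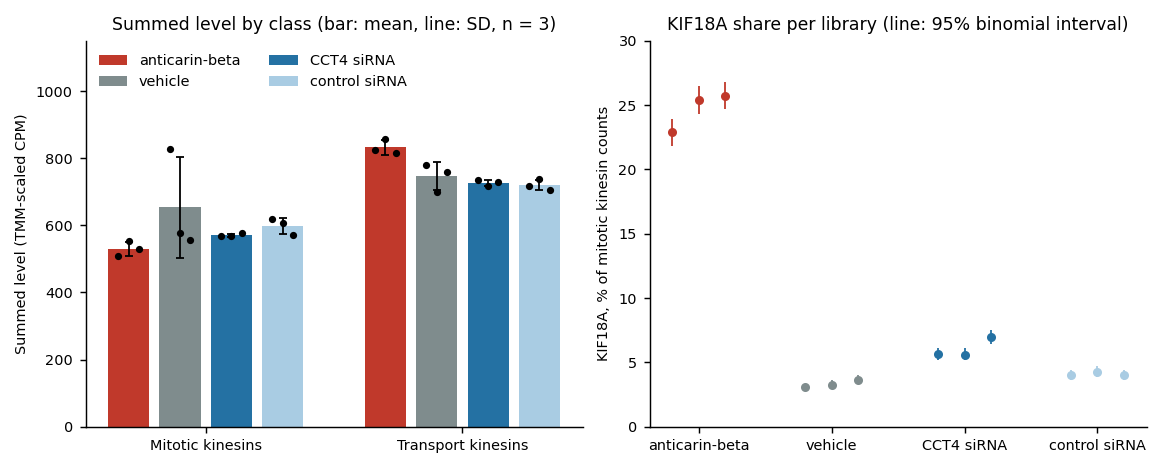
Left, summed level (TMM-scaled CPM) of mitotic and transport kinesins, with bars for the mean of 3 libraries, lines for the SD and points for libraries; right, the share of mitotic kinesin counts from KIF18A in each library with its exact 95% binomial interval, which covers counting error only. KIF18A makes up 22.9% to 25.7% with anticarin-beta and 3.06% to 3.64% with vehicle, and the mitotic bar of vehicle carries the widest SD, with replicate 1 at 828 CPM.

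In the libraries labelled CCT4 siRNA, few kinesins were called. Of the 32 tested, 7 differed from control siRNA, 2 higher and 5 lower (21.9%), against 19.7% of all genes (10.7% higher and 9.04% lower), so the share is near the background. The groups did not overlap for 16 kinesins, 12 lower and 4 higher, against 41.8% of all genes (20.1% lower and 21.7% higher). The log2 fold change was negative for 25 of the 32 and positive for 7, against 8707 and 8999 of all genes. The mitotic median log2 fold change was −0.11 and the transport median −0.07, against 0.01 for all genes, and the difference of the 2 class medians, −0.04, changed sign over the same genes without control siRNA replicate 1 (0.05) or CCT4 siRNA replicate 3 (0.04). With library totals alone, 0 kinesins were higher and 9 lower, and over all genes 902 and 2800. The summed level of the mitotic kinesins was 571 ± 4.36 CPM with CCT4 siRNA and 598 ± 24.4 CPM with control siRNA, and that of the transport kinesins 726 ± 9.17 CPM with CCT4 siRNA and 720 ± 15.6 CPM with control siRNA (SD, n = 3 each).

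The mitotic kinesins called in the siRNA experiment were KIF18A and KIF20B. KIF18A was at 32.0, 31.9 and 40.2 CPM with CCT4 siRNA, against 25.0, 26.0 and 22.8 CPM with control siRNA (0.50 ± 0.13, adjusted p = 0.0185). The groups did not overlap, but the call was lost with library totals alone (0.37, adjusted p = 0.0709), without control siRNA replicate 1 (0.51, adjusted p = 0.0508) or 3 (0.45, adjusted p = 0.0645), and without CCT4 siRNA replicate 3 (0.38, adjusted p = 0.0790). KIF20B was at 49.0, 53.4 and 54.8 CPM with CCT4 siRNA, against 70.7, 71.1 and 61.1 CPM with control siRNA (−0.37 ± 0.12, adjusted p = 0.0445). It no longer passed when any 1 CCT4 siRNA library, or control siRNA replicate 1 or 2, was dropped (adjusted p from 0.0789 to 0.143) and held without control siRNA replicate 3 (−0.43, adjusted p = 0.0419). It was also lost without vehicle replicate 3 (adjusted p = 0.0543) and without anticarin-beta replicate 1 (adjusted p = 0.0562).

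Of the transport kinesins, KIF1C was at 278, 251 and 255 CPM with CCT4 siRNA, against 209, 217 and 217 CPM with control siRNA (0.29 ± 0.06, adjusted p = 0.00582), a call lost with library totals alone (0.16, adjusted p = 0.0926). KIF16B was at 11.7, 11.8 and 12.0 CPM with CCT4 siRNA, against 17.2, 15.1 and 17.1 CPM with control siRNA (−0.48 ± 0.10, adjusted p = 0.00488). The groups of both genes were apart. KIF5B, at 160, 162 and 159 CPM with CCT4 siRNA, against 186, 189 and 180 CPM with control siRNA, did not pass with the settings used here (−0.21 ± 0.07, adjusted p = 0.0524). It was called lower under RLE, upper-quartile and library-total scaling, with DESeq2 and limma-voom, with the siRNA experiment fitted alone, and without vehicle replicate 1 or 2 (adjusted p from 0.00738 to 0.0481).

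Of the genes of other roles, KIF1BP was at 23.5, 21.6 and 23.1 CPM with CCT4 siRNA, against 41.1, 39.8 and 41.4 CPM with control siRNA (−0.84 ± 0.10, adjusted p = 2.23e-04). KIF1BP, which is not itself a motor, had the largest called change in this experiment of the genes taken by the name rule. KIF2A was at 37.4, 36.3 and 39.2 CPM with CCT4 siRNA, against 55.3, 48.4 and 46.6 CPM with control siRNA (−0.41 ± 0.09, adjusted p = 0.00713). KIF26A was at 7.59, 10.3 and 7.84 CPM with CCT4 siRNA, against 11.4, 12.9 and 13.2 CPM with control siRNA (−0.55 ± 0.16, adjusted p = 0.0328). The groups were apart for all 3 genes. The KIF26A call was lost without control siRNA replicate 2 (−0.52, adjusted p = 0.0905) or 3 (−0.50, adjusted p = 0.0899) and without CCT4 siRNA replicate 1 (−0.46, adjusted p = 0.118) or 3 (−0.48, adjusted p = 0.110).

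The responses to anticarin-beta and to CCT4 siRNA, each against its own control, were compared as a contrast in the same fit. It called 22 of 32 kinesins, 8 higher and 14 lower with anticarin-beta (59.9% of all genes were called, 27.5% higher and 32.4% lower), among them 9 of 11 mitotic kinesins, 2 higher and 7 lower, and 8 of 12 transport kinesins, 4 each way. KIF18A rose in both comparisons and by 2.11 ± 0.18 more on the log2 scale with anticarin-beta (adjusted p = 6.37e-07). KIF20B and KIF2A were higher with anticarin-beta and lower in the libraries labelled CCT4 siRNA, and the responses differed by 0.78 ± 0.17 (adjusted p = 0.00134) and 0.81 ± 0.12 (adjusted p = 1.11e-04). KIF1BP, KIF16B and KIF26A were lower in both and more so with anticarin-beta, by −1.44 ± 0.15, −0.52 ± 0.14 and −4.99 ± 0.31.

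Several kinesins showed a response to anticarin-beta and no called change in the siRNA experiment. KIF20A was at 62.5, 61.5 and 58.8 CPM with CCT4 siRNA, against 64.8, 63.1 and 57.2 CPM with control siRNA, and the responses differed by −2.08 ± 0.32 (adjusted p = 1.06e-04). KIF4A was at 39.7, 39.5 and 40.5 CPM with CCT4 siRNA, against 36.8, 38.7 and 39.7 CPM with control siRNA (difference −1.83 ± 0.16, adjusted p = 8.15e-07). KIF15 was at 11.2, 8.92 and 10.0 CPM with CCT4 siRNA, against 12.9, 16.4 and 10.9 CPM with control siRNA (difference −1.70 ± 0.25, adjusted p = 8.42e-05). The siRNA groups overlapped for these 3. KIF22 was at 73.4, 70.6 and 72.2 CPM with CCT4 siRNA, against 81.8, 75.0 and 76.1 CPM with control siRNA (difference −0.99 ± 0.18, adjusted p = 3.47e-04). KIF11 was at 60.4, 64.5 and 65.2 CPM with CCT4 siRNA, against 73.5, 73.2 and 71.3 CPM with control siRNA (difference −0.56 ± 0.14, adjusted p = 0.00335). Both were slightly lower in every library labelled CCT4 siRNA without passing the test, though KIF11 passed with the siRNA experiment fitted alone (−0.21, adjusted p = 0.0322) and with library totals alone (−0.33, adjusted p = 0.0404). KIF2C, at 60.6, 55.7 and 57.0 CPM with CCT4 siRNA, against 61.1, 60.0 and 55.0 CPM with control siRNA, differed in response by −0.73 ± 0.22 (adjusted p = 0.0131), or −0.48 without vehicle replicate 1. KIF18B, at 71.3, 70.7 and 72.3 CPM with CCT4 siRNA, against 69.1, 59.7 and 59.1 CPM with control siRNA, differed by −0.51 ± 0.16 (adjusted p = 0.0172). The remaining mitotic kinesins, KIF14 and KIF23, had siRNA log2 values of −0.12 and −0.19, and neither passed any of the 3 tests with all libraries. Without vehicle replicate 1, however, KIF23 passed in the siRNA comparison too (−0.19, adjusted p = 0.0364), and the difference of its responses was 0.36 (adjusted p = 0.00346), against 0.19 with all libraries. KIF23 was also called lower with CCT4 siRNA when that experiment was fitted alone (−0.20, adjusted p = 0.0363).

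Among the transport kinesins the difference was called for KIF17, KIF5B, KIF13A and KIF13B in one direction and for KIF3A, KIF3C, KIF16B and KIF5C in the other. KIF17 was at 1.24, 1.20 and 1.41 CPM with CCT4 siRNA, against 1.02, 1.71 and 1.31 CPM with control siRNA, overlapping (difference 4.02 ± 0.32, adjusted p = 2.89e-07). KIF13A was at 42.7, 42.4 and 45.6 CPM with CCT4 siRNA, against 47.8, 42.2 and 38.9 CPM with control siRNA (difference 1.01 ± 0.19), and KIF13B was at 14.0, 13.9 and 11.9 CPM with CCT4 siRNA, against 15.1, 16 and 16.3 CPM with control siRNA (difference 1.18 ± 0.18). The siRNA groups overlapped for KIF17 and KIF13A, and KIF13B was lower in every library labelled CCT4 siRNA without passing the test. KIF3A was at 16.1, 17.6 and 18.1 CPM with CCT4 siRNA, against 21.3, 20.9 and 17.9 CPM with control siRNA (difference −1.56 ± 0.21), and KIF3C at 45, 44.3 and 44.1 CPM with CCT4 siRNA, against 46.3, 51.5 and 47.7 CPM with control siRNA (difference −1.70 ± 0.14). KIF5C was at 1.24, 1.14 and 1.41 CPM with CCT4 siRNA, against 1.15, 0.951 and 0.835 CPM with control siRNA (difference −3.36 ± 0.68). For KIF5B the difference was 0.44 ± 0.10 (adjusted p = 0.00193). KIF1B, KIF3B and KIF5A had siRNA log2 values of −0.01, −0.06 and 1.36, none called, the last on 13 and 5 counts.

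The partners of these motors were read from lists of related genes. Of 20 genes of spindle and cytokinesis proteins, 5 were higher and 6 lower with anticarin-beta, with a median of −0.06, that of all genes. The share called was 55.0%, against 73.0% of all genes (34.9% higher and 38.0% lower). Without vehicle replicate 1 the count was 8 higher and 4 lower, against 6079 and 6757 over all genes (70.4% called). With library totals alone it was 0 higher and 13 lower, against 4292 and 8959 over all genes (74.8% called). CIT, the citron kinase that works with KIF14, was at 16.2 ± 0.643 CPM with anticarin-beta and 49.3 ± 7.72 CPM with vehicle (−1.60 ± 0.10, adjusted p = 2.05e-08). CCNA2 (−1.55 ± 0.14, adjusted p = 4.14e-07), a cyclin of S phase and G2, and HMMR (−1.47 ± 0.14, adjusted p = 1.04e-06), a spindle pole protein, were lower too, while ECT2, the exchange factor that centralspindlin activates, was higher (0.59 ± 0.09, adjusted p = 6.77e-05). The proliferation gene TOP2A was lower (−1.02 ± 0.10, adjusted p = 9.28e-07), and MKI67, at 208 ± 53.2 CPM with anticarin-beta and 180 ± 80.6 CPM with vehicle, was not called (adjusted p = 0.669). With CCT4 siRNA, 2 of the 20 were higher, BIRC5 (0.45 ± 0.15, adjusted p = 0.0457) and AURKA (0.42 ± 0.14, adjusted p = 0.0488), and 0 lower. This was 10.0% of the list, against 19.7% of all genes.

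Of 12 tested adaptors that tie transport kinesins to cargo, 4 were higher and 6 lower with anticarin-beta (83.3%, against 73.0% of all genes). Their median was −0.11, or 0.18 without vehicle replicate 1, where KLC3 also passes the low-count filter. PLEKHM2, which links kinesin-1 to lysosomes, was at 188 ± 4.73 CPM with anticarin-beta and 73.9 ± 3.28 CPM with vehicle (1.35 ± 0.07, adjusted p = 1.77e-09). MAPK8IP3, an adaptor of kinesin-1 in axons (1.25 ± 0.08, adjusted p = 2.30e-08), and TRAK1, which links kinesin-1 to mitochondria (1.17 ± 0.07, adjusted p = 9.19e-09), were higher, and KIFAP3 was the lowest, as given with its motors. In the libraries labelled CCT4 siRNA 4 were lower and 0 higher: BORCS5 (−0.85 ± 0.23), TRAK2 (−0.45 ± 0.10), KLC4 (−0.39 ± 0.11) and TRAK1 (−0.21 ± 0.07). This was 33.3% of the adaptors tested, against 19.7% of all genes (9.04% lower). Of 5 kinesins with other symbols, KIFC3, a minus-end motor, was at 928 ± 19.3 CPM with anticarin-beta and 384 ± 9.52 CPM with vehicle (1.27 ± 0.06, adjusted p = 9.65e-10), and at 606 ± 17.1 CPM with CCT4 siRNA and 471 ± 26.3 CPM with control siRNA (0.36 ± 0.06, adjusted p = 0.00124). CENPE, the kinetochore kinesin, was higher with anticarin-beta (0.60 ± 0.18, adjusted p = 0.00928) and STARD9, a kinesin of the centrosome, lower (−0.68 ± 0.22, adjusted p = 0.0129). KIFC1, a minus-end motor of spindle poles, and KIFC2 were not called (−0.05 ± 0.10 and 0.23 ± 0.13).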

How the data were processed

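A stranded TruSeq kit was used for the libraries, per the labels. The authors deposited raw counts per gene in 1 table for 12 libraries, neither normalized nor pooled. The submitters' processing notes name the hg38 build and the tools Subread, featureCounts 1.5.0 and STAR 2.5.2a; for the annotation release and the strand setting, nothing is given in the sources used here. How reads in exons shared by genes on opposite strands were counted is therefore not known. Exon overlaps and lengths came from GENCODE release 29, which held 98.5% of the gene identifiers.

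The quasi-likelihood test of edgeR 4.0.16 in R 4.3.3 (two-sided) was fitted to the counts after filterByExpr and TMM scaling, with 1 mean per group over all 12 libraries (8 residual degrees of freedom) and Benjamini-Hochberg adjustment over 17717 genes; calls are adjusted p under 0.05. CPM are TMM-scaled, and the fold changes carry a prior count of 0.125. Standard errors came from the F statistic, and 95% intervals from the t distribution with the fit's degrees of freedom. A kinesin was called not overlapping where all 3 values of a group lay on one side of the other group. Replicate pairs differed beyond sampling noise (chi-square per degree of freedom 8.48 to 26.5). The fit was also run on simulated data in which few genes changed, as many up as down. That run cannot check the scaling of a comparison in which most genes are called. DESeq2 1.42.0 and limma-voom (limma 3.58.1) were alternatives, beside other scalings and filters, each experiment alone, a replicate block, wider classes and leaving out each library. Counts over annotated motor genes alone, and class medians over the genes of the full fit alone, were added after seeing the data.

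All tested mitotic and transport kinesins were named, other kinesins where called with at least 5 CPM in the higher group, and up to 4 genes of each related list by smallest p. KIF24, KIF27, KIF9, KIF21B and the untested members were named after their values were seen. The members and lists were chosen with earlier results of these data known. Intervals and floors cover counting error only.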

Additional observations from a re-analysis of the deposited data

How the results depend on the processing

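The count of kinesins called with anticarin-beta ran from 24 to 29 over all alternatives against 26 (25 to 27 when leaving out 1 library each), that with CCT4 siRNA from 4 to 10 against 7 (4 to 9), and that of the difference of responses from 21 to 25 against 22 (22 to 23). The low end with CCT4 siRNA, 4, came without CCT4 siRNA replicate 3. Among annotated motor genes alone the counts were 25, 6 and 21. The mitotic minus transport difference of medians with anticarin-beta ran from −0.98, with each experiment alone, where KIF5C drops out, to −0.39 with wider classes. When leaving out 1 library each it ran from −0.88 to −0.42, the last without vehicle replicate 1, but KIF4B then enters most fits; over the same genes it ran from −0.94 to −0.58. With CCT4 siRNA it ran from −0.09 to 0.09 (−0.09 to 0.05 over the same genes), turning to 0.09 without control siRNA replicate 1 and 0.07 without CCT4 siRNA replicate 3 (0.05 and 0.04 over the same genes). With library totals alone KIF20B (−0.01), KIF2A (−0.02), KIF1C (−0.18), KIF5B (−0.19), AURKA (−0.09) and DCTN3 (−0.31) reversed with anticarin-beta. Against TMM, that scaling shifts the log2 values of all genes down. Which of the scalings is right was not tested, so the direction of these genes depends on that choice. PRC1, at −0.01, ran from −0.12 to 0.16 when leaving out 1 library each and was at 0.16 without vehicle replicate 1. The cause of the changes between settings was not tested. KIF18B and KIF3B also lost their calls with anticarin-beta under RLE scaling and DESeq2, and KIF5B and KIF1C under upper-quartile scaling. Same-numbered libraries did not deviate together over all genes (correlations −0.0308 to 0.0264), and the labels state no pairing. A pairing that touches few genes would not be seen in this way. With a replicate block 26 kinesins were called with anticarin-beta and 6 with CCT4 siRNA, where KIF20B was at −0.36 (adjusted p = 0.0698). Each experiment alone gives no difference of responses. Genes under a few CPM, such as KIF5A and KIF5C, are limited by depth.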

Other observations

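Cytoplasmic dynein, the motor that runs toward microtubule minus ends, and its partner dynactin had no common direction. Of 20 tested genes of the complexes, 8 were higher and 7 lower with anticarin-beta (median 0.10, against −0.06 for all genes). The share called was 75.0%, against 73.0% of all genes. DCTN6, a dynactin subunit, was at 106 ± 2.75 CPM with anticarin-beta and 45 ± 2.72 CPM with vehicle (log2 fold change 1.23 ± 0.08, SE; edgeR adjusted p = 2.67e-08). DYNC1I2, an intermediate chain of dynein, was at 29 ± 2.25 CPM with anticarin-beta and 78.2 ± 8.94 CPM with vehicle (−1.43 ± 0.10, adjusted p = 6.35e-08). DCTN1, the largest dynactin subunit, was lower (−0.88 ± 0.06, adjusted p = 2.05e-08) and DYNLT1, a light chain, higher (0.93 ± 0.07, adjusted p = 1.29e-07). With CCT4 siRNA, DCTN3 alone of the 20 was called, at 19.5 ± 1.06 CPM with CCT4 siRNA and 13.7 ± 1.70 CPM with control siRNA (0.50 ± 0.11, adjusted p = 0.00983). This was 5.0% of the list, against 19.7% of all genes.

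The controls of the 2 experiments differ in treatment, time and handling, which cannot be told apart. The ratio of control siRNA to vehicle had a median of 0.952 over the 32 tested kinesins, and 30 of them lay between 0.5 and 2. KIF21B, a neuronal and lymphocyte kinesin named after its values were seen, was at 33.7, 32.3 and 33.0 CPM with control siRNA, against 3.36, 3.44 and 4.12 CPM with vehicle, a ratio of 9.07, and KIF17 had a ratio of 2.44.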
